A study of Mus musculus with 20 samples.

Results

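The Hox genes are the homeobox genes of the Hoxa, Hoxb, Hoxc and Hoxd clusters, and all 39 protein-coding members were followed here in mouse liver: 11 Hoxa genes on chromosome 6, 10 Hoxb genes on chromosome 11, 9 Hoxc genes on chromosome 15 and 9 Hoxd genes on chromosome 2. They were taken by their symbols in the GENCODE M21 annotation (a Hox letter from a to d followed by a number), and all 39 were among the 46603 gene identifiers counted in each library. The 20 libraries were bulk poly(A) RNA-seq of whole liver from male mice aged 2 months. The WT mice were C57BL/6J animals bought from a supplier. The KO mice (EedHepKO, same strain name in the labels) carried Eed flox alleles and Alb:Cre, which is active in hepatocytes and their fetal progenitors, and the RNA of all other liver cells was in the same libraries. Whether Eed was intact in those cells was not measured. Baseline samples came from the lobes removed at partial hepatectomy (PHx), and the samples after PHx came from the lobes left in place, at 30 h (1 mouse per genotype), 40 h (2) and 48 h (2), which gave 4 groups of 5 libraries. Genotype cannot be told apart from colony, nor PHx from lobe, nor a KO mouse from its time after PHx, because each mouse was sampled at 1 time.

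Hox proteins are transcription factors that bind DNA together with PBX and MEIS cofactors. In vertebrate embryos the genes are switched on in the order in which they stand in a cluster, with paralog group 1 at the 3′ end, and they set position along the body axis and the limbs. Polycomb repressive complex 2 (PRC2), of which EED is a core subunit, places the H3K27me3 mark that covers silent Hox clusters in adult tissues. Below, paralog groups 1 to 3 are called anterior (8 genes), 4 to 8 central (15 genes) and 9 to 13 posterior (16 genes).

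Levels are CPM, counts scaled to a common library size after TMM normalization. Library totals ran from 21634890 to 30461351 counts. Eed itself was lower in KO, at 16.8 ± 1.09 CPM in WT and 5.64 ± 1.44 CPM in KO at baseline (SD, n = 5; KO minus WT -1.57 ± 0.22 on the log2 scale, with its SE, edgeR adjusted p = 6.07e-05), and at 18.4 ± 3.98 against 4.62 ± 1.13 CPM after PHx. A count of 0 over the 5 WT baseline libraries allows a level of up to 0.0305 CPM (3 counts over the pooled group), and over the 5 WT libraries after PHx up to 0.0232 CPM, for counting error only. A fold given as "at least" sets the pooled KO counts, scaled by the pooled library sizes, against 3 counts in the pooled WT group, so it can differ slightly from a ratio of mean CPM. In bulk tissue fewer expressing cells and less RNA per cell cannot be told apart.

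The proximal promoters of the genes that moved together differ widely in their CpG content, the sequence feature for which PRC2 target promoters are known. The 250 bases before the start were found for 22 of the 39 genes in RefSeq (GRCm38.p6), and 4 are shown 5′ to 3′ with every CG in capitals, chosen to span the patterns described below: the gene with the highest KO level (Hoxa10), a posterior gene silent in WT with many CGs (Hoxa13), a gene with counts in WT (Hoxa5) and a gene at 0 in KO liver at baseline (Hoxd12).
Hoxa10 (chr6:52240855-52241104, minus strand): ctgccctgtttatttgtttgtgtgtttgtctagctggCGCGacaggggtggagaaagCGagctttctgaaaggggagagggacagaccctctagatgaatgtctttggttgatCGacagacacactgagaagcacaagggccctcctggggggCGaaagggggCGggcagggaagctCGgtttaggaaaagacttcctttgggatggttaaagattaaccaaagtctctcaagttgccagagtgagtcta
Hoxa13 (chr6:52260881-52261130, minus strand): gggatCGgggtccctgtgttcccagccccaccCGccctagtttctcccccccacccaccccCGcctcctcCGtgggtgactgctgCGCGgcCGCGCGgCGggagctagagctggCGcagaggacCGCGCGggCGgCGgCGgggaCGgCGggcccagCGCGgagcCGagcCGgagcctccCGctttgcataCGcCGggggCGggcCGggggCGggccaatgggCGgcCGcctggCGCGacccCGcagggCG
Hoxa5 (chr6:52204588-52204837, minus strand): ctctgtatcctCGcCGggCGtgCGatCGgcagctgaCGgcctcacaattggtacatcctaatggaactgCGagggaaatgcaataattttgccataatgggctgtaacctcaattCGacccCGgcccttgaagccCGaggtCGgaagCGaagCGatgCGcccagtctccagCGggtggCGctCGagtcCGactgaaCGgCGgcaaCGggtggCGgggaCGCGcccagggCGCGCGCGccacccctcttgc
Hoxd12 (chr2:74674763-74675012, plus strand): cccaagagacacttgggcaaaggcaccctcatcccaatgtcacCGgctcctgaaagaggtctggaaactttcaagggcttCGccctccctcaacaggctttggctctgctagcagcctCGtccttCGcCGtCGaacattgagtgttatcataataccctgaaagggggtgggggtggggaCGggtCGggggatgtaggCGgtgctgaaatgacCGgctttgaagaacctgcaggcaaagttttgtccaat

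The CG dinucleotide, which reads the same on both strands, occurred 7 times in the Hoxa10 window, 35 times in that of Hoxa13, 28 times in that of Hoxa5 and 10 times in that of Hoxd12. As many or more CGs as in Hoxa10 were found in 46.3% of the 32851 RefSeq promoters of this length, and as many as in Hoxa13 in 3% of them. Over the 22 Hox windows the count ran from 2 (Hoxd11) to 35, with a median of 12 against 6 over all promoters. The 17 windows of genes without a WT count had a median of 10 CGs and the 5 of genes with WT counts a median of 14. In these windows the count did not order the genes by their KO level: Hoxa10 had the highest KO level with 7 CGs, and Hoxd1, with 24, was at 0 in KO liver at baseline. RefSeq gives 2 entries each for Hoxa10 and Hoxd11, and only the window nearest the outermost GENCODE start was counted. Which start gave the KO reads was not measured. For Hoxa7, Hoxa9, Hoxc4 and Hoxd4 the RefSeq start lies 3281, 3719, 15461 and 10049 bases from the outermost GENCODE start, so their windows are those of inner starts.

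In WT liver most of the 4 clusters were silent. No count fell on 27 of the 39 genes in any of the 10 WT libraries: 9 of 9 Hoxc genes, 9 of 9 Hoxd genes, 6 of 11 Hoxa genes and 3 of 10 Hoxb genes. By position these were 16 of 16 posterior, 8 of 15 central and 3 of 8 anterior genes. The 12 genes with WT counts lay in the 3′ parts of the Hoxa and Hoxb clusters, Hoxb2 to Hoxb8 among them, and none reached a mean of 1 CPM. Hoxb4 had the highest WT mean at baseline, 0.534 CPM, and Hoxb8 had counts in WT only after PHx (5 counts in 2 libraries). The Hox sum over all 39 genes was 2.84 ± 0.444 CPM in WT at baseline and 2.71 ± 0.72 CPM after PHx (SD, n = 5).

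**Figure D1:**
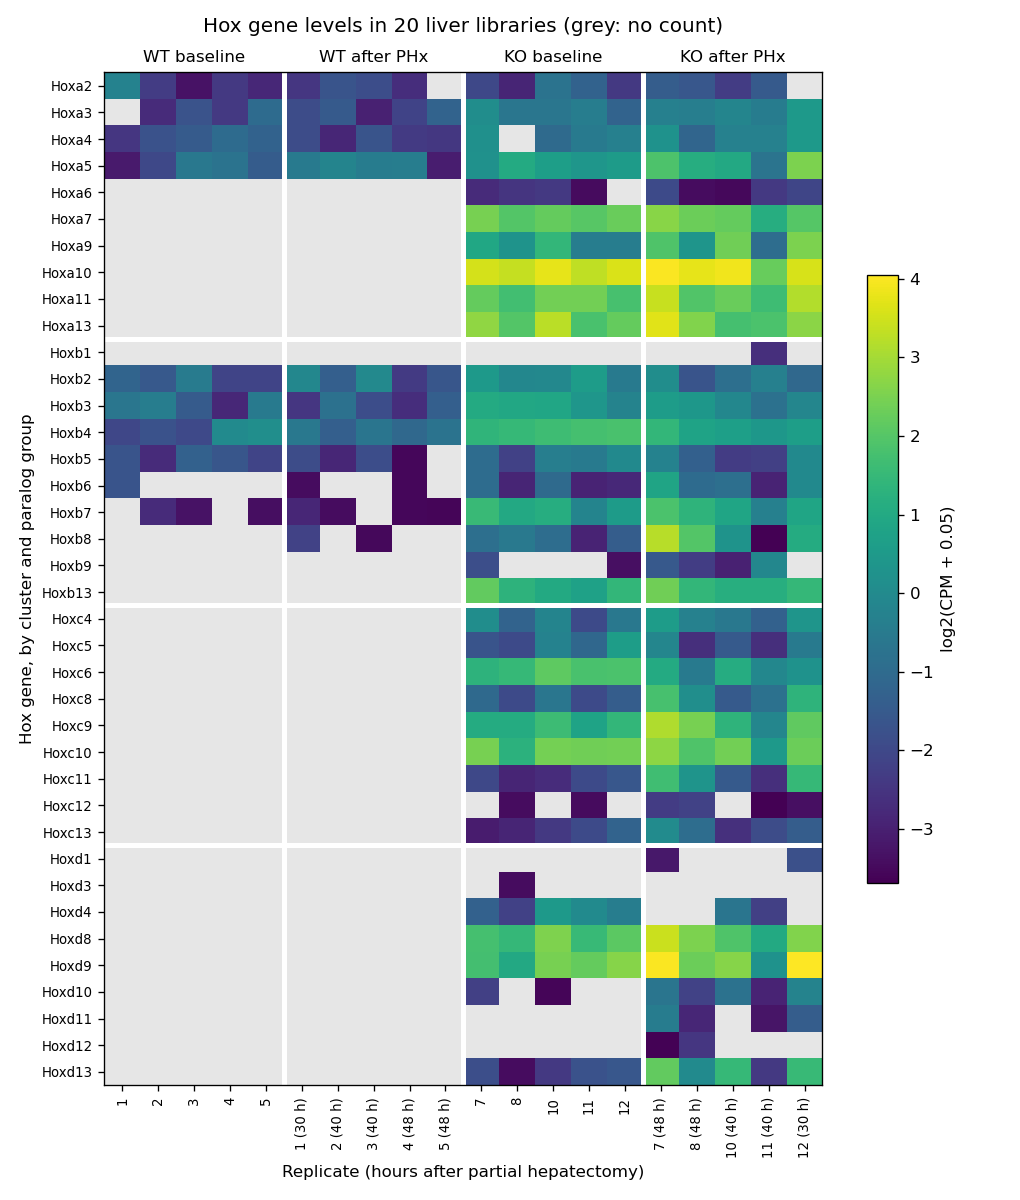
Level of 38 Hox genes (rows, by cluster and paralog group) in each of the 20 libraries (columns, by group; replicate number and hours after PHx), as log2(CPM + 0.05), with grey cells where there was no count. The Hoxc and Hoxd rows are grey in all 10 WT libraries and coloured for most genes in the 10 KO libraries.

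The KO libraries carried transcripts from all 4 clusters. Of the 39 genes, 35 had a count in KO liver at baseline and 38 after PHx, 29 and 30 of them in all 5 libraries, and the mean reached 1 CPM for 16 and 19. The Hox sum was 63.5 ± 11.2 CPM at baseline, from 49.5 to 78.4, and 83.5 ± 41.3 CPM after PHx, from 31.2 to 142. At baseline the Hoxa cluster gave 30.7 ± 5.69 CPM of it, Hoxc 12.3 ± 2.77, Hoxb 11.4 ± 2.14 and Hoxd 9.0 ± 3.12. The KO and WT sums did not overlap at either stage.

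At baseline the question was which Hox genes differ when hepatocytes lack Eed in an unoperated liver. The KO mean was higher than the WT mean for 35 of the 39 genes and lower for none, and the other 4 (Hoxb1, Hoxd1, Hoxd11, Hoxd12) had no count in either group. For 23 of the 39 genes every KO library was above every WT library. A gene at 0 in WT meets this with any count in each KO library, and the share over all genes was not counted. Among the 14661 genes that passed the expression filter, edgeR's quasi-likelihood test called 11.1% higher and 4.89% lower in KO (16% in either direction, Benjamini-Hochberg adjusted p under 0.05). The filter kept 26 Hox genes, of which 22 were called higher and none lower. Of those 26, 15 had no WT count and passed only through their KO libraries. Hoxb6, Hoxb7 and Hoxb8, with at most 4 counts in any WT library, also passed through their KO libraries. For all these genes the count describes them and is no separate evidence. The median log2 difference of the 26, with genes without WT baseline counts set at their lower bound, was 4.47, beside -0.03 over all genes tested. With library size alone as the scaling, 22 were also called, beside 24.8% of all genes, while the median over all genes moved from -0.03 to 0.45.

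Posterior genes made up most of the KO signal, with Hoxa10 the highest of all. Hoxa10, a regulator of uterine and limb development, was at 0 in the 10 WT libraries and at 11.7, 10.2, 13.6, 9.85 and 12.1 CPM in KO mice 7, 8, 10, 11 and 12 at baseline. The 5 KO libraries lay close together, above a WT group of zeros. The difference was at least 380-fold (edgeR adjusted p = 6.4e-07), and per kb of exon Hoxa10 stood at 3.52 CPM, at the 73.3 percentile of coding genes in KO liver. Hoxa13, which patterns the digits and the genital tract, was at 6.74, 3.89, 9.41, 3.53 and 4.65 CPM, at least 192-fold above WT (edgeR adjusted p = 1.13e-05). Hoxa11, a limb and kidney gene, was at 4.61, 3.21, 5.28, 5.28 and 3.43 CPM, at least 145-fold above WT (edgeR adjusted p = 5.88e-06). Reads of Hoxa11 can include those of its antisense neighbour Hoxa11os, which shares 35% of its exon bases, since the counting is not stated to use strand.

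Hoxc10, which acts in the lumbar spinal cord and hindlimb, was at 5.44, 2.37, 5.38, 5.11 and 5.26 CPM in the same mice, at least 156-fold above WT (edgeR adjusted p = 1.01e-05). Hoxd9, a limb and axial patterning gene, was at 3.29, 1.94, 5.41, 4.57 and 6.15 CPM, at least 139-fold above WT (edgeR adjusted p = 0.000178). Hoxb13, a gene of the prostate and tail, was at 4.55, 2.45, 1.97, 1.62 and 2.68 CPM, at least 89.1-fold above WT (edgeR adjusted p = 1.05e-05). The 8 posterior genes tested were Hoxa9, Hoxa10, Hoxa11, Hoxa13, Hoxb13, Hoxc9, Hoxc10 and Hoxd9. All 8 were called higher at both stages and in each alternative that tested them, but since they had no WT count and passed the filter through their KO libraries, this describes them and is no separate evidence.

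The other 8 posterior genes were near the limit of detection at baseline. Hoxd13, the last gene of its cluster, which patterns the digits, was at 0.232, 0.0423, 0.138, 0.249 and 0.282 CPM in KO mice 7, 8, 10, 11 and 12 (24 counts in all) and at 0 in WT. Hoxc11 had 22 counts and Hoxc13 had 21, in all 5 KO libraries each. Hoxb9 had 8 counts, Hoxd10 had 6, Hoxc12 had 2 and Hoxd11 and Hoxd12 had none, which allows up to 0.0234 CPM. With no expression filter, Hoxd13, Hoxc11 and Hoxc13 also passed the edgeR test at baseline, with adjusted p of 0.028, 0.0354 and 0.014, beside 7.65% of all genes in that fit. Within Hoxd, Hoxd9 was at 2 CPM per kb and its 5′ neighbour Hoxd10 at 0.0221 CPM per kb.

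**Figure D2:**
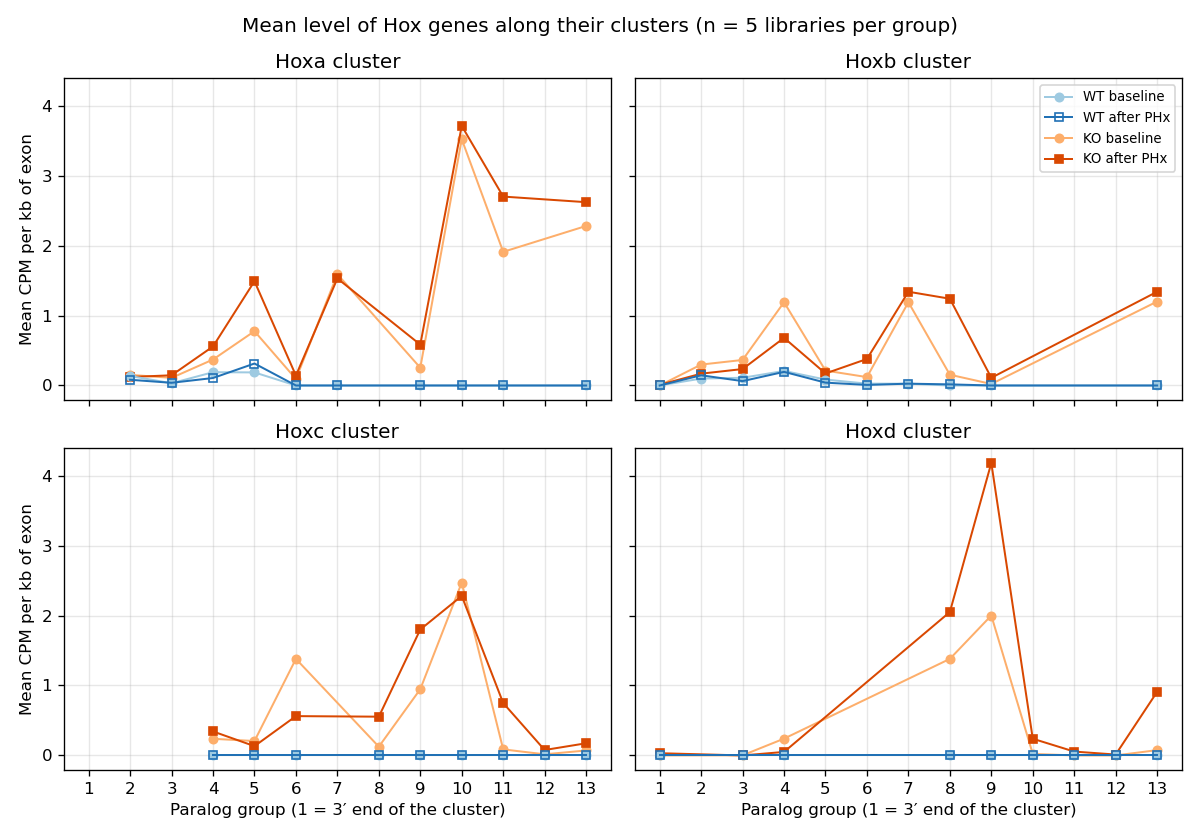
Mean CPM per kb of exon (y axis) of 38 Hox genes against their paralog group (x axis, 1 at the 3′ end of the cluster) in the 4 clusters, 1 line per group (n = 5 libraries each). In KO liver at baseline the lines peak at Hoxa10 (3.52), Hoxc10 (2.47), Hoxd9 (2) and, in Hoxb, at Hoxb4 (1.19), Hoxb7 (1.19) and Hoxb13 (1.2), while both WT lines stay at or near 0.

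Level was uneven within each cluster rather than graded. In Hoxa, Hoxa9 stood at 0.254 CPM per kb between Hoxa7 at 1.59 and Hoxa10 at 3.52, and Hoxa6 at 0.0929 beside Hoxa7. In Hoxc, Hoxc8 stood at 0.125 CPM per kb between Hoxc6 at 1.38 and Hoxc9 at 0.947. In Hoxb, Hoxb9 stood at 0.0217 CPM per kb between Hoxb8 at 0.154 and Hoxb13 at 1.2. The per-kb values use the union of annotated exons, so a gene with a long unused exon reads low. Hoxa9, with 5580 exon bases, is the second longest of the 39 by this measure, after Hoxa3.

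Of the central genes without WT counts at baseline, all but Hoxa6 were called higher. Hoxa6 had 11 counts in KO, overlapped with WT, did not pass the filter and missed the threshold without it (edgeR adjusted p = 0.0618). Hoxa7, a gene of the thoracic axial skeleton, was at 5.51, 3.93, 4.62, 4.07 and 4.79 CPM in KO at baseline, at least 152-fold above WT (edgeR adjusted p = 1.41e-06). It shares 20.4% of its exon bases with the antisense gene Hoxaas3, whose reads cannot be told apart from its own. Hoxd8 was at 3.35, 2.7, 5.79, 2.82 and 4.27 CPM, at least 126-fold above WT (edgeR adjusted p = 1.74e-05). Hoxc6, a thoracic marker gene, was at 2.42, 2.75, 4.31, 3.53 and 3.57 CPM, at least 109-fold above WT (edgeR adjusted p = 9.37e-06). All 5 KO libraries had counts of these 3 genes and all 5 WT libraries had none. Hoxc4, Hoxc5, Hoxc8, Hoxb8 and Hoxd4 were also called higher, at means of 0.353 to 0.708 CPM. Hoxd4 shares 52.3% of its exon bases with Hoxd3 and Gm28230, and Hoxd3, which shares 62.3%, had a single count in the 20 libraries, so the split of reads between them is uncertain.

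Of the tested genes with counts in WT liver at baseline, Hoxb4, Hoxb7, Hoxa5, Hoxa3, Hoxb2 and Hoxb3 were called higher in KO. Hoxb4, known for its effect on blood stem cells, was at 0.195, 0.25, 0.206, 0.963 and 1.06 CPM in WT replicates 1 to 5 and at 2.56, 2.75, 3.07, 3.36 and 3.52 CPM in the KO mice at baseline. The groups did not overlap, and the log2 difference was 2.48 ± 0.43 (SE; edgeR adjusted p = 0.000598). Hoxb7 was at 0 in 2 of 5 WT libraries and at no more than 0.1 CPM in the others, against 2.89, 1.94, 2.14, 0.831 and 1.41 CPM in KO. The log2 difference was 5.35 ± 0.68 (edgeR adjusted p = 2.29e-05), and Hoxb7 passed the expression filter through its KO libraries. Hoxa5, a gene of lung and neck development, was at 0.065, 0.2, 0.618, 0.55 and 0.321 CPM in WT and at 1.13, 1.99, 1.52, 1.25 and 1.41 CPM in KO, a log2 difference of 2.02 ± 0.61 (edgeR adjusted p = 0.0299). Its groups did not overlap either.

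The baseline calls for Hoxa3, Hoxb2, Hoxb3 and Hoxa5 lay near the threshold, and each was lost on leaving out 1 library, with more than 1 choice of that library. Their log2 differences over all alternatives ran from 1.45 to 2.33 for Hoxa3, from 1.43 to 2.1 for Hoxb2, from 1.47 to 2.23 for Hoxb3 and from 1.78 to 2.47 for Hoxa5, so the direction held where the call was lost. Hoxa3 (log2 difference 1.73 ± 0.57; edgeR adjusted p = 0.0428) and Hoxb2 (1.6 ± 0.53; edgeR adjusted p = 0.0453) overlapped between the groups. The Hoxa3 call was lost on leaving out WT replicate 1, 2, 3 or 4 or KO replicate 7, 8, 10 or 11, and the edgeR adjusted p then reached 0.106. The Hoxb2 call was lost on leaving out WT replicate 1, 2, 4 or 5 or KO replicate 7, 8, 10 or 11, with an edgeR adjusted p of up to 0.113. Hoxb3 (1.74 ± 0.5; edgeR adjusted p = 0.0223) was lost without WT replicate 3 or 4, at edgeR adjusted p of 0.0625 and 0.0544. Hoxa5 was lost without WT replicate 1, 2 or 5 or KO replicate 8 or 10, at edgeR adjusted p of up to 0.075. With no filter Hoxa3 and Hoxb2 were not called (0.0816 and 0.078). Hoxb3 shares 52.9% of its exon bases with the antisense gene Hoxb3os, Hoxb2 27.3%, and Hoxa3 25.4% with antisense genes, so their reads cannot be told apart from those.

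**Figure D3:**
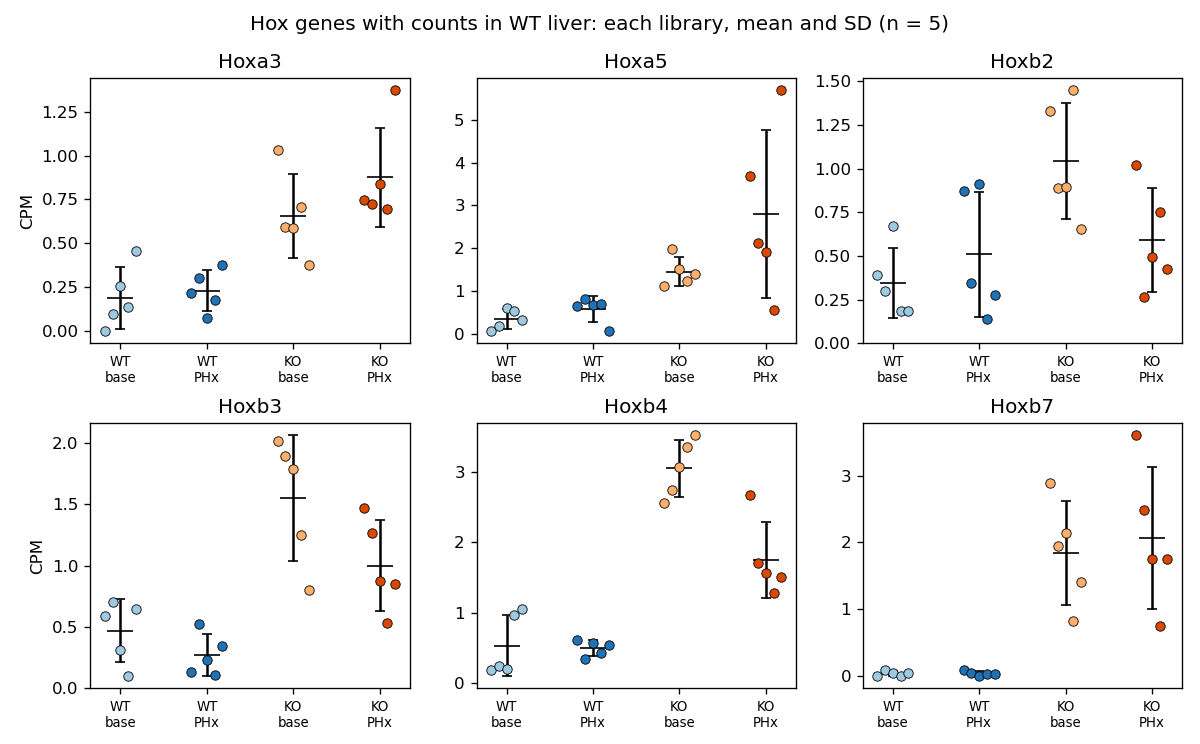
CPM of 6 Hox genes with counts in WT liver in every library (points, by group), with the mean and SD of each group of 5. Hoxb4 and Hoxb7 are separate between WT and KO at both stages, whereas Hoxb2 overlaps at both.

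Of the genes tested, 4 were not called at baseline: Hoxa2 (log2 difference 0.23 ± 0.81), Hoxa4 (0.94 ± 0.63), Hoxb5 (1.31 ± 0.68) and Hoxb6 (2.34 ± 1.08), with edgeR adjusted p of 0.88, 0.33, 0.198 and 0.147. Hoxb6 had all 4 of its WT baseline counts in WT replicate 1, and without that library, against a WT group at 0, it was called (edgeR adjusted p = 0.0207). The anterior genes as a group thus gave 3 calls (Hoxa3, Hoxb2, Hoxb3) among 4 tested and 8 in all, and each of the 3 was lost on leaving out at least 1 library.

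After PHx the question was whether the same genes differ in the regenerating liver. The KO mean was higher for 38 of the 39 genes, and 25 had every KO library above every WT library, again without a share over all genes. The test called 16% of all genes higher and 8.2% lower in KO (24.2% in either direction) and 23 of the 26 Hox genes, and 20 Hox genes were called higher at both stages. The 2 comparisons share no library, but they share the fit and its filter, and samples before and after PHx came from the same mice. Most of the 20 had no WT count and passed the filter through their KO libraries. Their calls at both stages describe them and are no separate evidence. Hoxa10 was at 16.1, 13.5, 14.6, 4.73 and 11.8 CPM in KO mice 7, 8, 10, 11 and 12 and at 0 in WT, at least 519-fold apart (edgeR adjusted p = 5.07e-07). Hoxd9 was at 15.9, 4.92, 6.14, 1.14 and 16.5 CPM, at least 348-fold above WT (edgeR adjusted p = 4.58e-05). Its KO libraries were far apart, mouse 11 being lowest.

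Hoxa4, Hoxb5 and Hoxb6 were called after PHx. Hoxa4 was at 0.218, 0.087, 0.266, 0.142 and 0.137 CPM in WT and 1.14, 0.395, 0.763, 0.778 and 1.37 CPM in KO, without overlap (log2 difference 2.35 ± 0.65; edgeR adjusted p = 0.0125), and 16% of its exon bases lie in the antisense gene Gm29430. Hoxb6 had 2 counts in WT and 115 in KO, a ratio of 45.9 with a 95% counting interval of 12.4 to 384 (edgeR adjusted p = 0.00231). It passed the expression filter through its KO libraries. Hoxb5 (2.04 ± 0.71; edgeR adjusted p = 0.0414) lost the call without WT replicate 2, 4 or 5 or KO replicate 7, 8 or 12, with an edgeR adjusted p of up to 0.102. Hoxa2 (0.62 ± 0.81), Hoxb2 (0.22 ± 0.51) and Hoxd4 were not called. Hoxb2 was at 0.591 ± 0.297 CPM in KO and 0.51 CPM in WT, with edgeR adjusted p = 0.789. Hoxd4 was at 0 in 3 of 5 KO libraries, those of mice 7, 8 and 12, and at 0.572 and 0.167 CPM in mice 10 and 11 (edgeR adjusted p = 0.0723 against WT).

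In WT liver PHx moved no Hox gene past the threshold, although 20.1% of all genes tested were called. Of the 26 Hox genes tested 0 were called by edgeR, 0 had an unadjusted p under 0.05, and DESeq2 called 0. Only 11 of the 26 had any WT count, and for the remaining 15 the test has nothing to compare. Among the 11, Hoxb8 went from 0 counts to 5, Hoxb6 from 4 to 2, and Hoxb5 from 0.236 CPM before to 0.114 CPM after PHx (log2 change -1.05 ± 0.74; edgeR adjusted p = 0.341).

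In KO liver PHx shifted few Hox genes past the threshold, and the mice differed from each other. The test called 29.5% of all genes (17.5% higher, 12.1% lower) and 3 of the 26 Hox genes (2 higher, 1 lower). The median log2 change was 0.18 over the 26 and 0.10 over all genes tested, and 28 of the 39 means were higher after PHx. Hoxb8, a central gene that also acts in blood precursors, was at 0.498, 0.634, 0.483, 0.0831 and 0.329 CPM before PHx in mice 7, 8, 10, 11 and 12 and at 9.17, 3.93, 1.18, 0.0278 and 2.04 CPM after it, higher in 4 of 5 mice (log2 change 2.99 ± 0.98; edgeR adjusted p = 0.0318). Hoxc8 was at 0.431, 0.211, 0.586, 0.208 and 0.329 CPM before and 3.45, 1.05, 0.305, 0.528 and 2.51 CPM after (2.12 ± 0.68; edgeR adjusted p = 0.0353). It too was higher in 4 of 5 mice, the exception being mouse 10. Hoxc6 fell in all 5 mice, from the baseline values above to 2.01, 0.637, 2.1, 0.889 and 1.14 CPM (log2 change -1.29 ± 0.41; edgeR adjusted p = 0.0342). It was the only Hox gene whose 2 KO groups did not overlap.

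These 3 calls did not hold in every fit. Since the labels give each KO mouse 1 number before and after PHx, a fit with the replicate block pairs the samples. It called 22.6% of all genes and 1 Hox gene, Hoxd4 (log2 change -3.09; edgeR adjusted p = 0.0413), and put Hoxb8, Hoxc8 and Hoxc6 at edgeR adjusted p of 0.0522, 0.0965 and 0.0513. Hoxd4 fell in all 5 mice, from 0.365, 0.169, 1.34, 0.955 and 0.704 CPM to 0, 0, 0.572, 0.167 and 0 CPM, and missed the threshold in the fit without the block (-2.27 ± 1.09; edgeR adjusted p = 0.131). Without KO replicate 8 after PHx no Hox gene was called (3 had an unadjusted p under 0.05), and 1 was called without KO replicate 7 or 12 after PHx or KO replicate 11 or 12 at baseline. Without KO replicate 10 after PHx Hoxd4 was called (-3.88; edgeR adjusted p = 0.0175), and without KO replicate 11 after PHx Hoxc9 was (1.15; edgeR adjusted p = 0.0443). Hoxc6 also lost its call under library size scaling (edgeR adjusted p = 0.0515). A fit with terms for the time after PHx called 35.4% of all genes and 4 Hox genes, with Hoxb8, Hoxc8 and Hoxc9 higher and Hoxd4 lower, at edgeR adjusted p of 0.0127, 0.00981, 0.0248 and 0.00924, and it put Hoxc6 at 0.117.

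Some posterior genes with few or no counts in KO liver at baseline had more after PHx, mostly in part of the mice. Hoxd13 went from the low values above to 4.55, 0.966, 2.78, 0.139 and 2.84 CPM in mice 7, 8, 10, 11 and 12, and Hoxc11 from 0.199, 0.0845, 0.103, 0.208 and 0.282 CPM to 3.18, 1.19, 0.305, 0.111 and 2.79 CPM. Both were higher in 4 of 5 mice and lower in mouse 11. Hoxd11 went from 0 counts to 36, with none in mouse 10, and Hoxd12 from 0 to 7, in mice 7 and 8 alone. Hoxd10 went from 6 counts in 2 libraries to 61 in all 5, and Hoxb9 from 8 counts in 2 libraries to 51 in 4. Neither was called by the edgeR test with no filter (adjusted p = 0.0602 and 0.248). Of the 6 Hoxc and Hoxd genes of paralog groups 11 to 13, all 6 were higher after PHx in mice 7 and 8, 4 in mouse 12 and 2 each in mice 10 and 11. These genes did not pass the expression filter. With no filter the edgeR test called 15% of all genes and, among the Hox genes, Hoxd13 (log2 change 3.52 ± 0.81; adjusted p = 0.00967), Hoxc11 (3.04 ± 0.85; adjusted p = 0.0255) and Hoxd11 (adjusted p = 0.0351) higher after PHx, together with Hoxb8 (adjusted p = 0.0391), whereas Hoxc6 and Hoxc8 then missed the threshold (0.0663 and 0.0563).

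By mouse, the posterior sum of 16 genes went from 41.2 to 89.9 CPM in mouse 7 and from 27.6 to 44.6 CPM in mouse 8, both sampled at 48 h, and each of the 16 genes was higher after PHx in both. In mouse 12, at 30 h, it went from 38.6 to 68.5 CPM, with 11 genes higher and 4 lower. In mice 10 and 11, at 40 h, it went from 47.1 to 47.6 CPM (8 higher, 5 lower) and from 33.1 to 18.9 CPM (6 higher, 9 lower). The anterior sum of 8 genes was lower after PHx in 4 of 5 mice, for example 4.71 to 3.72 CPM in mouse 7, and higher in mouse 12 (2.02 to 3.22 CPM). Under library size scaling all 16 posterior genes were again higher in mice 7 and 8, while the anterior sum of mouse 8 turned from lower to higher (3.99 to 4.07 CPM). Each time rests on 1 or 2 mice, and the times were not tested against each other.

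**Figure D4:**
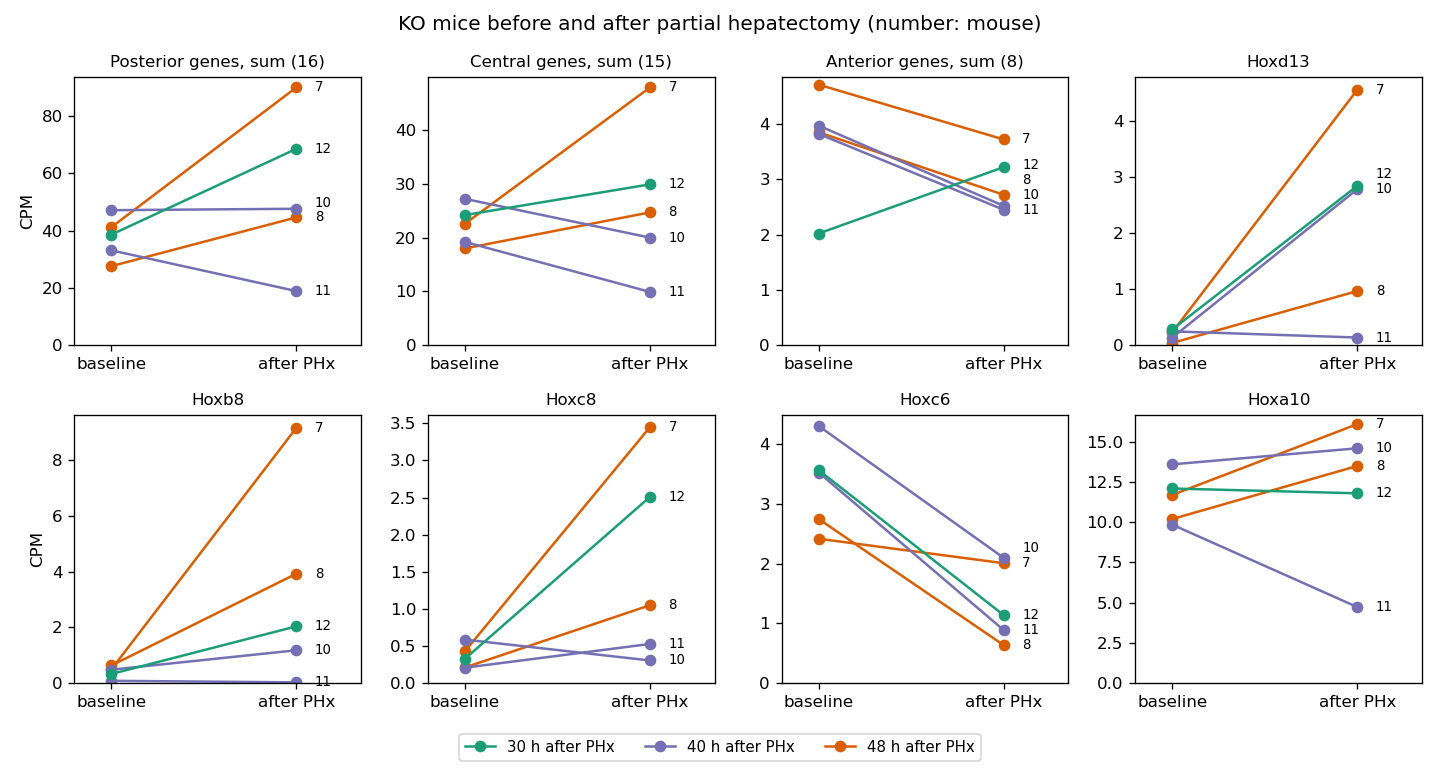
CPM before and after PHx (x axis) in each KO mouse (lines, numbered by mouse and coloured by hours after PHx), for the posterior, central and anterior sums and for 5 single genes. The posterior sum of mouse 7 reaches 89.9 CPM and that of mouse 11 drops to 18.9 CPM, and Hoxc6 falls in all 5.

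The PHx responses of KO and WT could be compared for 10 Hox genes, those with counts in all 4 groups, since with a WT group at 0 no difference of responses is estimable. None of the 10 was called by edgeR, 0 had an unadjusted p under 0.05, and DESeq2 also called 0, beside 0.389% of all genes tested. The largest differences were those of Hoxb6 (2.86 ± 1.72; edgeR adjusted p = 0.485), Hoxa4 (1.4 ± 0.89; edgeR adjusted p = 0.516) and Hoxb2 (-1.38 ± 0.73; edgeR adjusted p = 0.426).

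Of the 16 coding genes that flank the clusters (2 on each side), 11 were tested, none was called between KO and WT at baseline, beside 16% of all genes, and 1 was called after PHx, beside 24.2%. The latter was lower in KO (Hnrnpa3, an RNA-binding protein, -0.73 ± 0.22; edgeR adjusted p = 0.0198). Skap2, next to the 3′ end of Hoxa, was at 26.3 ± 4.81 CPM in WT and 24.5 ± 0.765 CPM in KO at baseline, and Mtx2, beyond Hoxd1, at 48.1 ± 3.31 and 42.5 ± 4.81 CPM. Skap1, an adaptor protein gene of T cells next to the 3′ end of Hoxb, did not pass the expression filter. It had 4 counts in WT at baseline (0.0398 CPM, at most 0.103) and 59 in KO (0.455 CPM, at least 0.207), a ratio of 11.3 without overlap, and 4 and 9 counts after PHx. The homeobox genes Evx1 and Evx2, at the 5′ ends of Hoxa and Hoxd, had no WT count. Evx1 had 2 counts in KO at baseline and 16 after PHx, and Evx2 had 0 and 15. Neither passed the expression filter.

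Of 48 non-coding genes inside the clusters or within 10 kb, 23 had a count and 10 had counts only in KO. Only 4 were tested, and 3 of these were called higher in KO at baseline, beside 11.1% of all genes, and 2 after PHx, beside 16%. All 3 passed the filter through their KO libraries, so the calls describe them and are no separate evidence. In the WT libraries Hoxa11os had no count, Hoxd3os1 had 1, and Hoxb3os was at 0.455 CPM at most. Hoxa11os, antisense to Hoxa11, was at 0 in WT and 0.726 ± 0.232 CPM in KO (at least 24.1-fold; edgeR adjusted p = 9.61e-05). Hoxd3os1 was at 0 and 0.502 ± 0.249 CPM (at least 16.9-fold; edgeR adjusted p = 0.000743). Hoxb3os was at 0.137 ± 0.188 and 1.03 ± 0.602 CPM (2.95 ± 0.71; edgeR adjusted p = 0.00755), and after PHx it was not called (1.49 ± 0.68; edgeR adjusted p = 0.116). Hotair, Hottip and Haglr, long non-coding RNAs known from these clusters, had no count in the 20 libraries.

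Among the genes of Hox protein partners, Meis3 was higher in KO at baseline, at 0.369 ± 0.168 CPM in WT and 3.16 ± 1.28 CPM in KO (3.08 ± 0.54; edgeR adjusted p = 0.000627). Of 15 genes known to act upstream of Hox genes, 11 were tested, and at baseline 2 were called higher and 1 lower, beside 11.1% and 4.89% of all genes. Aldh1a2, which makes retinoic acid in embryos, was at 0.092 ± 0.0983 CPM in WT and 8.72 ± 3.5 in KO (6.5 ± 0.79; edgeR adjusted p = 1.36e-05). Rarg, a retinoic acid receptor, was at 4.03 ± 1.53 and 12.9 ± 2.69 CPM (1.68 ± 0.35; edgeR adjusted p = 0.00243). Aldh1a1, the abundant liver retinal dehydrogenase, was lower, at 1380 ± 120 and 679 ± 148 CPM (-1.02 ± 0.35; edgeR adjusted p = 0.0494). After PHx 4 of the 11 were higher and 2 lower, beside 16% and 8.2% of all genes. Gdf11, a secreted signal that patterns the embryonic axis, was then at 0.0605 ± 0.0841 CPM in WT and 2.67 ± 3.56 CPM in KO (5.34 ± 1.2; edgeR adjusted p = 0.00299), with a spread among the KO mice larger than their mean. Kmt2a, a histone methyltransferase that maintains Hox expression, was at 21.2 ± 2.84 and 14.8 ± 2.27 CPM (-0.52 ± 0.18; edgeR adjusted p = 0.0346). Cdx1 had no count, and Cdx2, an activator of Hox genes in the embryo, had counts only in KO after PHx (23).

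Markers of other liver cells were counted beside the Hox genes, against the 11.1% of all genes called higher in KO at baseline. At baseline 5 of 8 stellate cell and fibroblast markers were called higher in KO, their summed level running from 79.9 to 118 CPM in WT and from 188 to 299 CPM in KO. For macrophages it was 2 of 5 (83.3 to 140 against 194 to 243 CPM), for cholangiocytes 1 of 5 (23.3 to 58.2 against 55.4 to 359 CPM), for blood cells 2 of 6 (43.7 to 79.4 against 50.2 to 71.8 CPM), for endothelial cells 1 of 6 (149 to 177 against 183 to 216 CPM) and for smooth muscle 0 of 3 (7.06 to 12.8 against 8.1 to 28.9 CPM). All markers of these lists had counts in WT. Of the 6 blood cell markers 5 were tested, and the 2 called were Ptprc and Spi1. The largest part of the blood cell sum was Hba-a1, at a mean of 43.4 CPM in WT and 33 CPM in KO, not called. Of 5 hepatocyte markers, 2 were lower, beside 4.89% of all genes, and their sum ran from 114000 to 134000 CPM in WT and from 72600 to 97500 in KO, so the defining hepatocyte genes were present in all groups. After PHx 4 of 5 cholangiocyte markers were higher in KO, 2 of 8 of stellate cells and fibroblasts, 1 of 5 of macrophages, 1 of 6 of endothelial cells and none of smooth muscle or blood cells, beside 16% of all genes, and 2 of 5 hepatocyte markers were lower, beside 8.2%. In KO mice 7, 8, 10, 11 and 12 the cholangiocyte sum was 359, 203, 130, 102 and 55.4 CPM before PHx and 561, 537, 188, 275 and 120 CPM after it. Its largest part was Spp1 alone, at a mean of 137 CPM before and 233 CPM after PHx. Mice 7 and 8, whose posterior Hox genes were all higher after PHx, had the highest sums at both stages. Mouse 12, whose posterior sum was also higher, had the lowest at both, and in mouse 11 the marker sum was higher and the posterior Hox sum lower after PHx. The stellate cell and fibroblast sum went from 299, 207, 236, 216 and 188 CPM to 132, 89.5, 226, 208 and 156 CPM in the same mice, lowest after PHx in mice 8 and 7. The smooth muscle sum went from 21.4, 28.9, 8.1, 11.4 and 11.4 CPM to 6.14, 6.59, 27.1, 30 and 17.1 CPM, lower after PHx in mice 7 and 8 and higher in the other three. After PHx the endothelial sum was also lowest in mice 7 and 8 (93 and 129 CPM, against 148 to 164 in the others), while for macrophages mice 7 and 12 were lowest (52.9 and 75.1 CPM, against 174 to 222), for blood cells mice 8 and 12 (28.6 and 35.7 CPM, against 41.5 to 53.8) and for hepatocytes mice 8 and 11 (36800 and 39200 CPM, against 43100 to 84700). The part of these cells in the Hox levels was not tested.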

How the data were processed

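Poly(A) RNA of 20 mouse livers was sequenced paired-end, and the authors deposited raw read counts per gene for each library. Reads were trimmed (fastp 0.20.0), checked with FastQC 0.11.5 and mapped to mm10 with unique reads kept, per the series' design text; the submitters' processing notes also list Trimmomatic 0.36. The aligner, the counting tool and strand, and the annotation used are not given in the sources used here. Symbols, positions and exon lengths came from GENCODE M21 (46005 of 46603 identifiers matched) and promoter sequences from RefSeq (GRCm38.p6). One edgeR 4.0.16 quasi-likelihood model (R 4.3.3) with TMM scaling was fitted to the 20 libraries in 4 groups, on 14661 genes kept by filterByExpr, with 5 contrasts and Benjamini-Hochberg adjustment over all genes at 0.05. An SE is the log2 change divided by the root of F. The script was tested on simulated data. Folds are ratios of pooled counts over pooled library sizes, with 3 pooled counts as the floor for a group at 0; fitted values of such genes depend on the prior count and are not given, and 95% counting intervals are exact. Alternatives were library size alone, DESeq2 1.42.0, no filter, at least 1 CPM in 5 samples, only the compared groups, a time term, the replicate block and leaving out each library.

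Groups came from the labels, and so did the replicate numbers except that of WT baseline replicate 1, whose title gives none. In the other titles the same number marks the same mouse before and after PHx, so 9 pairs stand within a genotype, and WT baseline replicate 1 was left unpaired, as a block of its own; residuals of same-numbered samples correlated at -0.055 to 0.152 and those of others at -0.234 to 0.259. WT and KO share no animal. The members and gene lists were chosen with earlier results of these data known. Named were the Hox genes, the PRC2 check, the called genes of each other list (at most 4 per contrast), genes inside the clusters and the 2 nearest coding genes on each side; others were named after their values were seen. Some members of these lists are not reported here by name. No pair of libraries was identical. The mice within a group are separate animals per the labels.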

Additional observations from a re-analysis of the deposited data

Results flagged for a closer look

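In 67 sets of 5 libraries of a group (a tested Hox gene or a cluster sum with at least 50 counts), 4 libraries stood far from the rest of their group (gap to the nearest value over 0.71 of the range), about what chance gives at 1 in 20. Hoxc10 was at 2.37 CPM in KO baseline replicate 8, below a next value of 5.11. Hoxb13 was at 5.12 CPM in KO replicate 7 after PHx, above a next value of 2.7. Hoxa3 was at 1.37 CPM in KO replicate 12 after PHx, above 0.839. Hoxa5 was at 0.0687 CPM in WT replicate 5 after PHx, below 0.654.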

How the results depend on the processing

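Of 1680 gene values set against an alternative, 1598 kept their direction and side of the threshold or were called in neither fit (60 of these changed sign), 60 lost a call, 22 gained one and 0 called values reversed. Of the Hox genes called, 18 of 22 at baseline and 21 of 23 after PHx were called in every alternative that tested them, and 0 of 3 for the KO response to PHx. With no filter 30 of 39 Hox genes were called after PHx, beside 3594 of 25585 genes. The count of Hox genes called after PHx was 15 with at least 1 CPM in 5 samples, where only 15 were tested, and these passed that filter mainly through their KO libraries, since no Hox gene reached a mean of 1 CPM in WT. For the KO response it was 1 with that filter and 1 with the replicate block, which changed no other Hox count. Leaving out each library gave 19 to 22 at baseline, 22 to 24 after PHx, 0 to 4 for the KO response and 0 to 0 for the WT response and for the difference. Over all genes, KO against WT at baseline called 2348 genes, 3634 with library size alone (share of calls that were higher 96.9% in place of 69.5%) and 5242 with only the compared groups; after PHx it was 3544, with 1345 in the compared groups only (library size alone: 92.9% higher in place of 66.1%). Library size alone moved that share from 56.8% to 86.7% for the WT response, from 59.1% to 80.9% for the KO response and from 42.1% to 15.8% for the difference. The difference called 57 genes, 365 with DESeq2, 90 with a time term and 7 with the replicate block. The cause was not tested. At 3 counts or fewer per group, depth allows no statement on a Hox gene beyond the bounds given.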
